A study of Petunia x hybrida with 12 samples.

Results

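These results concern 144 gene IDs of the petunia pistil whose transcripts were abundant before the flower opened and scarce after it. They were selected on the measured levels of both days, among the 35812 IDs of the deposited count table. Levels are in CPM, the count of an ID divided by the total of its library and multiplied by 1000000. An ID was taken if its mean over the 6 libraries of day -1 was 10 CPM or more, and if that mean was at least 32 times the mean over the 6 libraries of day +1, with 0.1 CPM added to both means. The level limit alone was met by 12642 IDs, and the mirror of the whole rule, a level at least 32 times higher at day +1, by 358. Because the fall between the days chose the 144 IDs, nothing is read from a test of the fall in these 144. Lists chosen in 1 genotype alone were tested in the other.

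Pistils, the female organs of the flower, came from Petunia x hybrida cultivar Mitchell, a laboratory petunia. They were collected at 14:00, and polyadenylated RNA was sequenced in 4 groups of 3 libraries. The groups were tps1 at day +1, wild type (WT) at day +1, tps1 at day -1 and WT at day -1, with days counted from anthesis, the opening of the flower, and no time between them sampled. The tps1 plants carry an RNA interference construct against PhTPS1, a terpene synthase gene, and the labels name neither the number of independent lines nor a control construct. They also leave unsaid whether each library is a different plant, so the tests measure the spread between libraries only.

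As background, the pistil completes its growth and becomes receptive to pollen around flower opening. Petunia has a wet stigma, which secretes an exudate that receives the pollen, and pollen tubes then grow through the transmitting tissue of the style to the ovary. PhTPS1 makes sesquiterpenes in the flower, among them germacrene D, and these volatiles reach the pistil from other floral parts. The title of the study names KAI2, an alpha/beta hydrolase receptor known from karrikin signalling.

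Each ID is made of the prefix Peaxi162, a scaffold and a gene number, and the count table does not pair it with a gene name. Products, cell types and the target PhTPS1 were therefore not looked up, the tissue label was not checked against marker genes, and the 144 IDs are described by their levels and their behaviour. In a bulk sample, fewer cells of a type and less RNA per cell cannot be told apart, and this holds for each fall given here. Total counts ran from 19576755 to 30357964 per library, so that 1 count was worth 0.0329 to 0.0511 CPM.

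The 144 IDs together took 1.72% ± 0.118 of the counts in tps1 and 1.74% ± 0.0117 in WT at day -1 (SD, n = 3 each). At day +1 they took 0.0194% ± 0.0036 in tps1 and 0.0245% ± 0.0015 in WT. Their mean levels at day +1 spanned 0.00851 to 35.7 CPM with a median of 0.434 CPM, against 10.1 to 1757 CPM with a median of 54.8 CPM at day -1. The ratio of day -1 to day +1, with 0.1 CPM added, ran from 32.3 to 1102 and had a median of 68.2. It lay under 64 for 69 IDs, from 64 to under 128 for 39, and at 128 or more for 36. At day -1, 67 IDs stood under 50 CPM, 31 from 50 to under 100 CPM and 46 at 100 CPM or more.

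**Figure D1:**
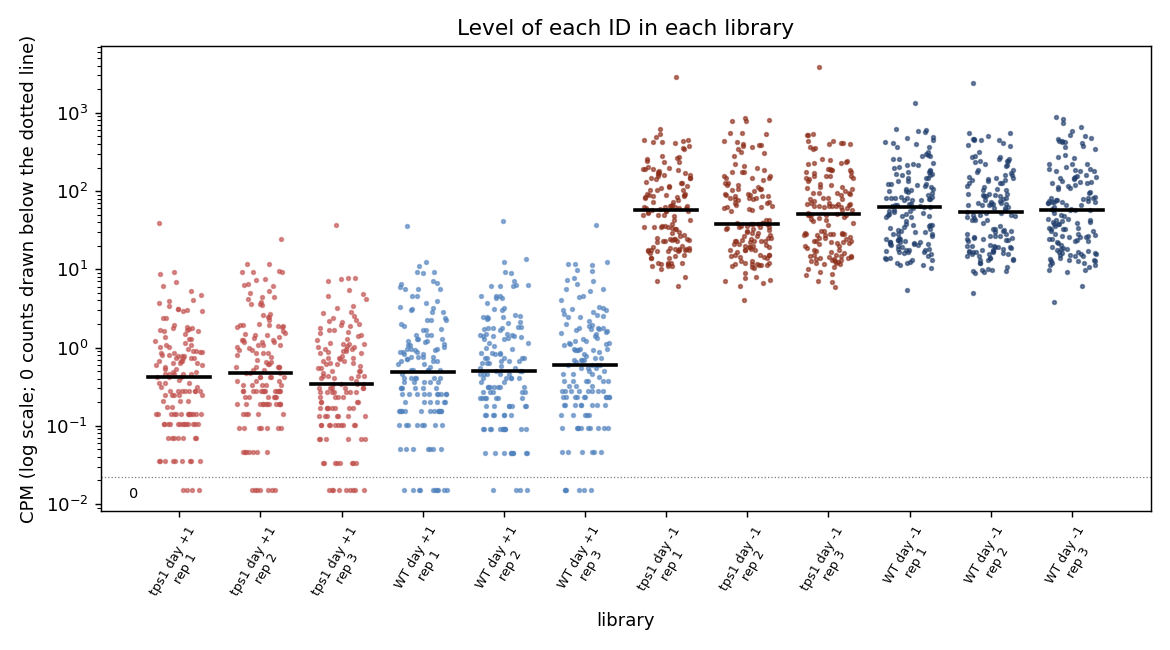
Level of each of the 144 IDs (points, CPM on a log scale) in each of the 12 libraries, with the median as a black bar; IDs with 0 counts are drawn below the dotted line. Medians lie between 0.338 and 0.6 CPM in the 6 day +1 libraries, on the left, and between 38.2 and 61.7 CPM in the 6 day -1 libraries, on the right.

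Few of these transcripts were lost from the counts altogether. At day +1, 123 of the 144 IDs had at least 1 count in each of the 6 libraries, 21 had 0 counts in at least 1 library, and 0 IDs had 0 counts in all 6. The mean at day +1 was under 0.5 CPM for 75 IDs and under 0.1 CPM for 13, while 46 IDs kept 1 CPM or more and 10 kept 5 CPM or more. For 143 IDs the lowest library of day -1 was above the highest library of day +1, and for 141 it was over 10 times as high. The day contrasts of the edgeR fit (adjusted p under 0.05) called all 144 lower at day +1 in each genotype, where 33% of all 21239 tested IDs were called lower in tps1 and 33.5% in WT. Since the rule used these contrasts, nothing is read from that count.

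The most abundant ID was Peaxi162Scf00444g00238, the 1 ID whose days overlapped. Its day +1 levels were 39, 24.5 and 36.6 CPM in tps1 replicates 1, 2 and 3, and 36.2, 40.9 and 36.8 CPM in the WT replicates. Before opening, the tps1 replicates had 2868, 37.5 and 3841 CPM and the WT replicates 1335, 2385 and 74.7 CPM. The tps1 replicate 2 of day -1 thus lay within the range of the day +1 libraries and WT replicate 3 was the next above it, while the other 4 libraries of day -1 were at least 1335 CPM. The second most abundant, Peaxi162Scf00207g00747, had no such gap. After opening, the tps1 replicates had 2.42, 4.12 and 2.13 CPM and the WT replicates 5.57, 6.07 and 7.25 CPM. Before opening, the values were 491, 866 and 525 CPM for tps1 and 606, 558 and 842 CPM for WT, and here the same libraries, tps1 replicate 2 and WT replicate 3, were the highest of their groups.

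The steepest falls among IDs of at least 100 CPM at day -1 were those of Peaxi162Scf00071g01911 and Peaxi162Scf00983g00418. Peaxi162Scf00071g01911 had 11 counts over the 6 libraries of day +1, at most 0.185 CPM in any of them, against 86.8 to 257 CPM at day -1. Its ratio was 1102 with the 0.1 CPM added, and 2482 from the summed counts alone, with an exact 95% interval of 1387 to 4972 that covers counting error only. Peaxi162Scf00983g00418 had 0.735, 1.26 and 0.439 CPM in the tps1 replicates of day +1, and 0.919, 0.725 and 0.97 CPM in those of WT. Its day -1 levels were 626, 777 and 538 CPM for tps1 and 566, 456 and 659 CPM for WT, a ratio of 641. Neither ID had overlapping days, and both were among the 36 IDs with a ratio of 128 or more.

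The limits of the rule cut through a continuous range. Just inside the 32-fold limit was Peaxi162Scf00083g01311, at 0.676 CPM at day +1 and 25 CPM at day -1 (ratio 32.3). Just outside it was Peaxi162Scf00691g00316, at 7.88 CPM at day +1 and 255 CPM at day -1 (ratio 31.98). Peaxi162Scf00745g00719 was the lowest ID inside the level limit, at 0.158 CPM at day +1 and 10.1 CPM at day -1, and Peaxi162Scf01333g00114 the highest outside it, at 0.00851 CPM at day +1 and 9.67 CPM at day -1. A 16-fold limit would have taken 252 IDs and a 64-fold limit 75, while adding 1 CPM in place of 0.1 would have left 63.

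Whether the fall holds in samples that played no part in the choice can be asked by choosing in 1 genotype and testing in the other, each fitted alone with edgeR so that no library and no estimate of spread is shared. The rule applied to WT alone gave 146 IDs, of which 137 belong to the 144. In the 6 tps1 libraries, 146 of these 146 were called lower at day +1 (edgeR quasi-likelihood test, highest adjusted p = 0.0206), where 32.5% of all 20837 IDs tested in tps1 were called lower. The median of their day -1 over day +1 ratios was 66.7 in tps1 and 68.2 in WT, and 133 of them were at 32 or more in tps1 as well. The lowest in tps1 was 12.4, for Peaxi162Scf00078g00043.

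The mirror choice exchanged the roles of the same libraries, so it is not a separate repeat. The rule applied to tps1 alone gave 150 IDs, of which 134 belong to the 144. In the 6 WT libraries, 150 of these 150 were called lower at day +1 (edgeR quasi-likelihood test, highest adjusted p = 0.043), where 32.8% of all 20535 IDs tested in WT were called lower. The median ratio was 62.4 in tps1 and 63.3 in WT, and 128 of the 150 reached 32 in WT. The lowest in WT was 7.39, for Peaxi162Scf00421g00827. The lists of both genotypes shared 127 IDs, which is 87% of the WT list and 84.7% of the tps1 list.

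**Figure D2:**
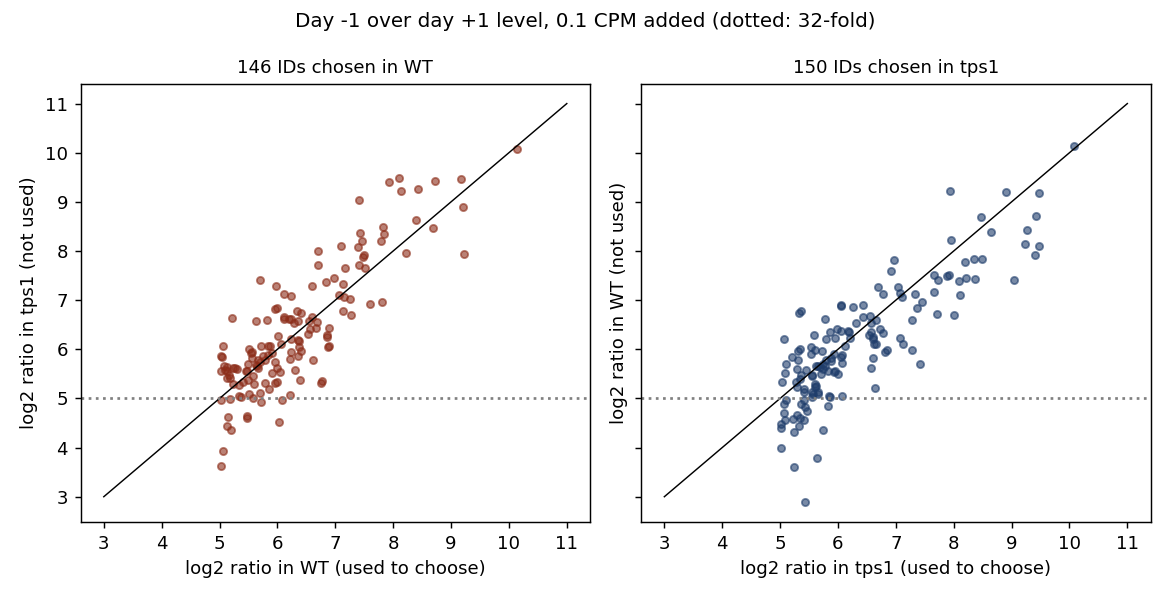
Ratio of day -1 to day +1 (log2, 0.1 CPM added) in the genotype used to choose the IDs (horizontal axis) and in the genotype not used (vertical axis), 1 point per ID, with the line of equal ratios and a dotted line at 32-fold. Of the 146 IDs chosen in WT (left), 133 lie at or above the dotted line in tps1, and of the 150 chosen in tps1 (right), 128 do so in WT.

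Before opening, the 144 IDs varied more between libraries of a group than all 12642 IDs that met the level limit, the 144 among them. The median coefficient of variation was 19.6% in tps1 and 17.4% in WT, against 10.7% and 10.8% over the 12642 IDs at 10 CPM or more at day -1. The rule used the day -1 mean and not this spread, but an ID with 1 very high library can reach the limit through it. With each ID centred on its mean over the 6 libraries of day -1 (log2 of CPM with 0.1 added), component 1 of a principal component analysis carried 79.1% of the spread, and 72.7% without Peaxi162Scf00444g00238. For the 12642 IDs the first component held 47.9%. The loadings on the component of the 144 were 0.67 for tps1 replicate 2 and 0.46 for WT replicate 3, while the other 4 libraries had loadings from -0.35 to -0.24. On the first component of the 12642 IDs the same libraries had 0.66 and 0.37, and the other 4 from -0.58 to -0.01. The axis was thus not particular to the 144.

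Each library of day -1 was compared with the mean of the other 2 libraries of its group. In tps1 replicate 2, 21 of the 144 IDs were over 2-fold lower and 6 over 2-fold higher, where 3.23% and 2.46% of the 12642 IDs were. In WT replicate 3, 9 were over 2-fold lower and 6 over 2-fold higher, where 1.87% and 0.815% were. The other 4 libraries had fewer. Over 2-fold lower were 5 and 3 IDs in tps1 replicates 1 and 3 (0.894% and 0.807% of the 12642) and 0 and 3 in WT replicates 1 and 2 (0.506% and 0.949%). Over 2-fold higher was 1 ID in each of them, against 0.174% and 1.66% of the 12642 in tps1 replicates 1 and 3 and 0.348% and 0.989% in WT replicates 1 and 2. The extremes over all 6 libraries were spread differently. Of the 144, 9, 55 and 43 had their lowest day -1 value in tps1 replicates 1, 2 and 3, where 9.97%, 20.4% and 21.6% of the 12642 did, and 3, 25 and 9 had it in WT replicates 1, 2 and 3, where 5.04%, 28.2% and 14.9% did. The highest value was in tps1 replicates 1, 2 and 3 for 24, 17 and 7 IDs, where it was for 15.5%, 27.8% and 11.9% of the 12642. In WT replicates 1, 2 and 3 it was for 35, 15 and 46 IDs, where it was for 9.97%, 18.2% and 16.7%. The most frequent lowest library was thus tps1 replicate 2, with tps1 replicate 3 next, and the most frequent highest library was WT replicate 3, with WT replicate 1 next.

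The same IDs deviated in both libraries, although these belong to different genotypes. Across the 144 IDs the log2 deviation of tps1 replicate 2 and that of WT replicate 3 correlated with r = 0.89, and with r = 0.84 over the 143 without Peaxi162Scf00444g00238. Over the 12642 IDs the value was 0.58. The IDs are not independent, and the 3 deviations within a group constrain each other, so the correlations of the other library pairs, from -0.76 to 0.79 over the 144, follow in part from this one. In both libraries, 55 IDs lay below the other 2 libraries of the group, 38.2% of the 144 against 28.6% of the 12642. Above in both lay 58, at 40.3% close to the 37.2% of the 12642, and 31 lay on opposite sides, 21.5% against 34.2%. Over 2-fold in both were 9 IDs that were lower, 6.25% of the 144 against 1.22% of the 12642, and 5 that were higher, 3.47% against 0.538%.

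**Figure D3:**
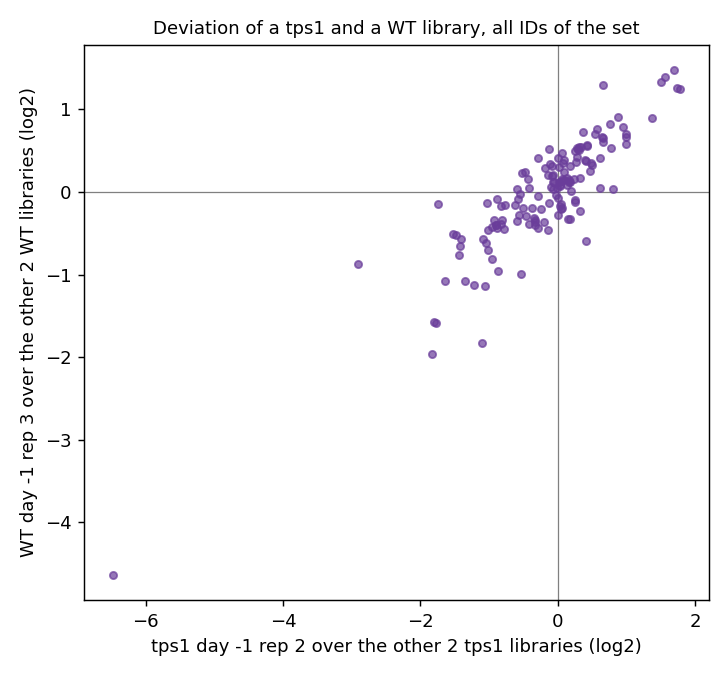
Log2 ratio of tps1 day -1 replicate 2 to the mean of the other 2 tps1 libraries of that day (horizontal axis) and of WT day -1 replicate 3 to the mean of the other 2 WT libraries (vertical axis), 1 point for each of the 144 IDs. The point far to the lower left, at -6.48 and -4.64, is Peaxi162Scf00444g00238, and the remaining points run from the lower left to the upper right.

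Both directions were found among IDs that all fell between the days. Chosen after its values were seen, Peaxi162Scf00065g01529 had the second largest downward deviation in tps1 replicate 2. Its day +1 levels were 0.815 to 1.87 CPM over all 6 libraries. At day -1 tps1 replicates 1, 2 and 3 had 183, 23.8 and 174 CPM and the WT replicates 117, 126 and 66.6 CPM. Peaxi162Scf00228g00323, chosen in the same way, had the largest upward deviation there. Its day +1 levels were 0.203 to 1.28 CPM, and at day -1 the tps1 replicates had 18, 70.4 and 22.9 CPM and the WT replicates 28.2, 33.1 and 73 CPM. Replicate 2 of tps1 and replicate 3 of WT were thus the lowest of their groups for the one ID and the highest for the other.

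The place of tps1 replicate 2 in the summed share turned on 1 ID. All 144 together took 1.58% of the counts of tps1 replicate 2, against 1.79 and 1.78% of tps1 replicates 1 and 3, and 1.75% of WT replicate 3, against 1.73% of both WT replicates 1 and 2. Peaxi162Scf00444g00238 alone took 0.00375% of tps1 replicate 2, against 0.287 and 0.384% of tps1 replicates 1 and 3. Without it, a comparison added after its values were seen, the others took 1.58% of tps1 replicate 2, against 1.5 and 1.4%. They took 1.75% of WT replicate 3, against 1.6 and 1.5%. Thus tps1 replicate 2 went from the lowest to the highest of its group, while WT replicate 3 was the highest either way. Measured as the log2 distance from the other 2 libraries of the group to the day +1 mean of the genotype, tps1 replicate 2 had covered a median fraction of 0.00438 and WT replicate 3 of -0.00817. Only Peaxi162Scf00444g00238 had covered over 0.5 of that distance, 0.975 in tps1 replicate 2 and 0.826 in WT replicate 3, and over 0.25 were 9 and 4 IDs. Nothing in the labels sets these 2 libraries apart, and what moved them was not tested.

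**Figure D4:**
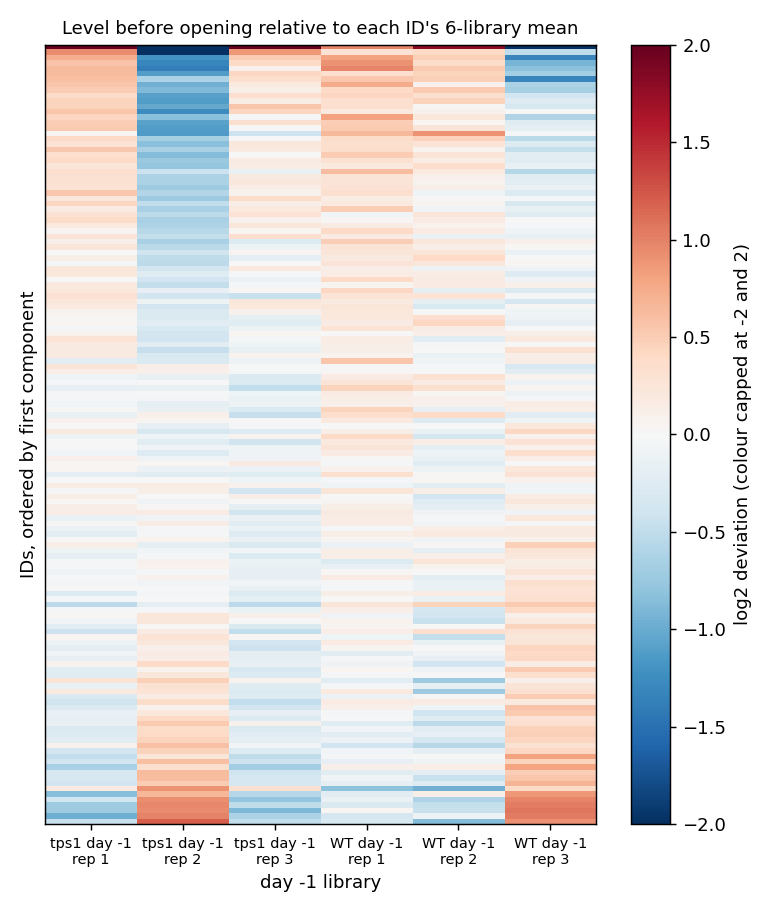
Log2 deviation of each of the 144 IDs (rows, ordered by the first principal component) from its own mean over the 6 libraries of day -1 (columns), with colours capped at -2 and 2. The columns of tps1 replicate 2 and WT replicate 3 are low at the top and high at the bottom, while the other 4 columns tend the other way.

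The comparison of tps1 with WT within a day did not enter the rule. At day -1, 0 of the 144 IDs were called higher and 0 lower in tps1 (edgeR quasi-likelihood test, adjusted p under 0.05), where 0.184% of all tested IDs were called and 0.0659% were called lower. At an unadjusted p under 0.05 edgeR gave 8, all of them lower in tps1, which is 5.56% of the 144 against 7.71% of all tested IDs. DESeq2 called 1 (1.88% of all tested IDs) and limma-voom 1 (0.16%), both lower in tps1. Of the 144 log2 fold changes, 113 were below 0, 78.5% against 55.1% of all tested IDs; the median was -0.14 on the log2 scale and the middle of the distribution ran from -0.29 to -0.03 (quartiles). The median over all tested IDs was -0.02. Without tps1 replicate 2 and WT replicate 3 of day -1, a setting chosen after seeing the data, the median over the 144 was -0.082 and 1 ID was called lower, where 1.48% of all tested IDs were called.

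The smallest p at day -1 was that of Peaxi162Scf00069g01927. The tps1 replicates had 34.7, 35.1 and 27.5 CPM and the WT replicates 52.8, 48.7 and 40.4 CPM. The log2 ratio of tps1 to WT was -0.56 with an SE of 0.146 (edgeR adjusted p = 0.349, and 0.0548 to 0.9999 over 21 other settings). The groups did not overlap, as was so for 16 of the 144 IDs with all tps1 values below those of WT and for 3 with all above, where 4.2% and 3.47% of all tested IDs showed this. The ID did not pass the threshold.

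At day +1, 3 of the 144 IDs were called lower in tps1 and 0 higher, that is 2.08% called lower where 0.193% of all tested IDs were, and 0.4% were called in either direction. All 3 were at low levels by then. Peaxi162Scf00978g00116 had 3, 5 and 2 counts in tps1 and 17, 14 and 19 in WT, or 0.136 ± 0.0874 CPM against 0.793 ± 0.138 CPM (SD, n = 3). The log2 ratio of tps1 to WT was -2.61 with an SE of 0.42 (edgeR adjusted p = 0.0285). From its summed counts of 10 and 50 the ratio of tps1 to WT was 0.159, with an exact 95% interval of 0.072 to 0.318 for counting error. At day -1 its means were 124 ± 21.8 CPM for tps1 and 151 ± 36.1 CPM for WT, and the groups overlapped.

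Peaxi162Scf00132g00074 had 0.63, 0.281 and 0.642 CPM in the tps1 replicates of day +1, and 1.43, 1.27 and 1.48 CPM in those of WT. Its log2 ratio was -1.40 with an SE of 0.235 (edgeR adjusted p = 0.0341), and its day -1 means were 371 ± 18 CPM for tps1 and 422 ± 42 CPM for WT (SD, n = 3). For this ID all tps1 values lay below all WT values at day -1 as well. Peaxi162Scf00230g00038 had 3.15, 3.47 and 2.03 CPM in the tps1 replicates of day +1, and 7.05, 7.16 and 5.63 CPM in those of WT. Here the log2 ratio was -1.21 with an SE of 0.206 (edgeR adjusted p = 0.0363), and the day -1 means were 402 ± 53.9 CPM for tps1 and 506 ± 82.7 CPM for WT (SD, n = 3), with overlapping groups. In each of the 3 IDs all tps1 values of day +1 lay below all WT values. These calls depended on the setting. DESeq2 called 12 of the 144, all lower in tps1 and the 3 among them, where 1.49% of all tested IDs were called. With the replicate number as a block 1 was called, Peaxi162Scf00230g00038 (0.245% of all tested IDs). limma-voom called 0 (0.424% of all tested IDs), with 12.5% of the 144 and 7.5% of all tested IDs at an unadjusted p under 0.05. The day +1 libraries fitted alone gave 0 calls among the 73 members tested there (0.979% of all tested IDs), with 31.5% of the 73 and 17.9% of all tested IDs at an unadjusted p under 0.05. With 1 library left out at a time, 0.122% to 0.59% of all tested IDs were called. The count among the 144 was then 0 without tps1 replicate 1, tps1 replicate 3, WT replicate 2 or WT replicate 3 of day +1, and 0 without tps1 replicate 3 or WT replicate 2 of day -1. Without tps1 replicate 1 or WT replicate 1 of day -1 it was 1, Peaxi162Scf00978g00116 in both cases. Without WT replicate 1 of day +1 it was also 1, but this was Peaxi162Scf00270g00019, named after its values were seen, and the 3 were lost. Without tps1 replicate 2 of day +1 the count was 5, with 2 of the 3 among them. Without both tps1 replicate 2 and WT replicate 3 of day -1 it was 6, with the 3 among them, where 1.06% of all tested IDs were called.

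**Figure D5:**
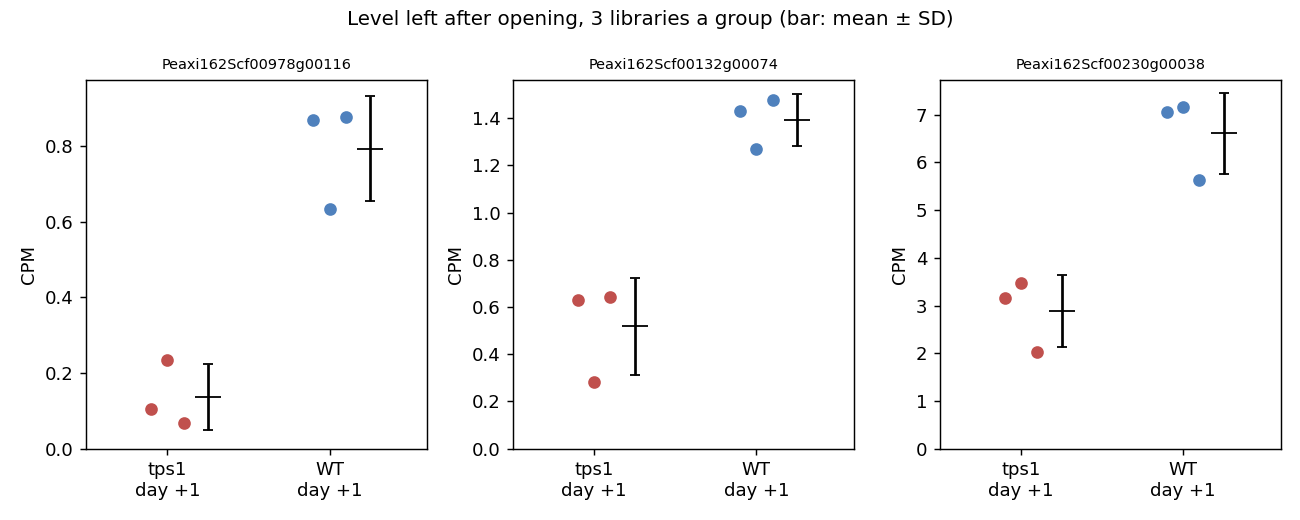
CPM of the 3 IDs called lower in tps1 at day +1, in the 3 tps1 libraries (left of each panel) and the 3 WT libraries (right), with the mean and SD beside the points. In Peaxi162Scf00978g00116 the tps1 mean is 0.136 CPM and the WT mean 0.793 CPM, and in no panel do the groups overlap.

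Of the 144 IDs, 134 had at least 10 counts in all over the 6 libraries of day +1, and the remaining 10 gave no usable genotype ratio on that day. Among the 134, 92 had a log2 fold change below 0, 68.7% against 48.7% of all tested IDs, and 3 of these passed the test. The median was -0.25 (quartiles -0.84 and 0.21), against 0.01 over all tested IDs. Over the 14833 other tested IDs whose day +1 means fell within the range of the 134 the median was 0.01, though their median level of 7.62 CPM was above the 0.58 CPM of the 134. All tps1 values lay below those of WT for 29 of the 134, 21.6% against 8.6% of all tested IDs, and above them for 7, 5.22% against 10.5%. An unadjusted p under 0.05 in the edgeR fit was reached by 36 of the 134, 26.9% against 7.8% of all tested IDs. Of these 36, 29 were lower and 7 higher in tps1. The low-count filter of this fit used all 12 libraries, so IDs scarce at day +1 could enter through their day -1 counts. With the day +1 libraries fitted alone, only 73 of the 144 were tested. In that edgeR fit 31.5% of the 73 and 17.9% of all tested IDs had an unadjusted p under 0.05. The shift of the 134 to lower values was not shared by all tps1 libraries. Relative to the mean of the 6 libraries, the median ID of the 134 deviated by -0.30, 0.06 and -0.30 log2 in tps1 replicates 1, 2 and 3, and by 0.03, 0.04 and 0.21 in WT, so tps1 replicate 2 lay within the WT range. Without that replicate the median log2 fold change was -0.49.

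The summed share was lower in tps1 replicates 1 and 3 than in every WT library, but not in tps1 replicate 2. At day +1 the 144 IDs took 0.0177, 0.0235 and 0.0169% of the counts in tps1 replicates 1, 2 and 3, against 0.0232, 0.0241 and 0.0262% in WT. The Wilson 95% interval of tps1 replicate 2, 0.0229 to 0.0242%, overlapped that of WT replicate 1, 0.0226 to 0.0239%, which cover counting error only. Shares without Peaxi162Scf00444g00238 were added after its values were seen. They were 0.0138, 0.0211 and 0.0133% in tps1 replicates 1, 2 and 3, and 0.0196, 0.0200 and 0.0225% in WT. Without that ID, tps1 replicate 2 thus lay above WT replicates 1 and 2.

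Whether tps1 and WT differed in the size of the fall was tested as an interaction. The edgeR fit called 0 of the 144 IDs, where 0.00471% of all tested IDs were called, with 29 at an unadjusted p under 0.05, 20.1% of the 144 against 6.12% of all tested IDs. Of the 29, 18 had a steeper fall in tps1. All 144 were counted here, including the 10 IDs without a usable genotype ratio at day +1, whose interaction estimates rest on few counts. DESeq2 called 2, Peaxi162Scf00978g00116 and Peaxi162Scf00132g00074 (0.433% of all tested IDs), and limma-voom called 0 (0% of all tested IDs). The smallest p was that of Peaxi162Scf00978g00116, whose log2 change between the days was lower by 2.30 ± 0.475 SE in tps1 than in WT (edgeR adjusted p = 0.32, and from 0.0162 to 0.998 over 20 other settings).

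In the table the 144 IDs were spread over 123 scaffolds of the 1961 listed. On 16 scaffolds there were 2 or more, 37 IDs in all, and 0 pairs were adjacent in the order of the table. Scaffold 00038, with 275 listed IDs, held the most, namely 4. Of these, Peaxi162Scf00038g01135 was abundant at day -1 (584 CPM, against 6.55 CPM at day +1), and Peaxi162Scf00038g00218 stood at 36.1 CPM at day -1, against 0.323 CPM at day +1. Peaxi162Scf00038g00011 and Peaxi162Scf00038g01729 stood at 0.235 and 0.273 CPM at day +1 and at 14 and 15.3 CPM at day -1. They did not vary alike before opening: in tps1 replicate 2 of day -1, Peaxi162Scf00038g01135 was the highest of its group at 797 CPM and Peaxi162Scf00038g00218 the lowest at 14 CPM.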

How the data were processed

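Raw read counts per gene ID, as deposited by the authors, were read for 12 libraries. Per the submitters' processing notes, cutadapt, TopHat2 and HTSeq were used; no version is named, and neither genome build nor strandedness is given in the sources used here, so overlapping, antisense or near-identical genes cannot be told apart. Columns were matched to samples by the names in the sample descriptions, and 0 columns were left out. CPM was computed from the deposited counts with the column total. Tests used R 4.3.3 and edgeR 4.0.16: filterByExpr (minimum count 10, leaving 21239 IDs), TMM scaling, 1 quasi-likelihood fit with a mean per group over 12 libraries, and Benjamini-Hochberg adjustment over all tested IDs in each contrast, with a threshold of 0.05. The standard error is the log2 fold change divided by the square root of F. The pipeline was run on simulated data with changes set in IDs drawn at random from all tested IDs. That run was not aimed at the set described here, and no result rests on it. Alternatives were DESeq2 1.42.0, limma 3.58.1 (voom), other scaling and filters, a replicate block and left-out libraries. Named IDs are the 2 most abundant, the 2 with the steepest fall at 100 CPM or more, those nearest the limits, those called (or with the smallest p) in the genotype tests, and those of the scaffold with most, apart from IDs said to be chosen after their values were seen and the lowest of each cross-genotype list. The rule, the lists and the alternatives were chosen with earlier results of these data known. Lists of named genes and markers were not used, for lack of gene names.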

Additional observations from a re-analysis of the deposited data

How the results depend on the processing

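The number of IDs taken by the rule moved by over 1.5 times with 1 CPM added (63), a 16-fold limit (252) and a 64-fold limit (75), and ran from 139 to 150 with 1 library left out. The count called between genotypes at day -1 was 0, where 0.184% of all tested IDs were called. It was 1 with DESeq2 (1.88% of all tested IDs) and 1 with limma-voom (0.16%). It was also 1 without both tps1 replicate 2 and WT replicate 3 of day -1 (1.48%, added after seeing the data). With 1 library left out it was 0 to 1, while the calls over all tested IDs ran from 19 to 243. Both the 1 and the 243 came without tps1 replicate 2 of day -1. For day +1 the count was 3, where 0.4% of all tested IDs were called. It was 1 with the replicate block (0.245% of all tested IDs), 12 with DESeq2 (1.49%) and 0 with limma-voom (0.424%). Without both tps1 replicate 2 and WT replicate 3 of day -1 it was 6 (1.06%). With only the groups compared it was 0 (0.979%), and with 1 library left out 0 to 5 (0.122% to 0.59%). The interaction count was 0 (0.00471% of all tested IDs called), and 2 with DESeq2 (0.433%). The median log2 fold change at day -1 was -0.082 without both of those libraries and -0.20 to -0.12 with 1 library left out, and at day +1 it ran from -0.49 to -0.22. Shares in WT were 0.0273% at day +1 and 1.88% at day -1 without the 10 most abundant IDs, and 1.67% at day -1 with TMM-scaled sizes. The cause of these moves was not tested. The cross-genotype counts ran from 144 to 146 in tps1 and from 147 to 150 in WT. Of the 4 IDs named from the genotype tests, the only ones followed through the settings, 0 log2 fold changes changed sign. Same-numbered libraries deviated together (correlation over 0.1) in 3 of 18 pairs, from -0.58 to 0.37, so the numbers were not taken as a pairing and the replicate block is given as a setting only. Levels under 1 CPM at day +1 rest on few counts and limit the genotype comparison there.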
